A study of Mus musculus with 15 samples.

Results

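The SLC25 family is the set of carrier proteins that move metabolites, nucleotides, cofactors and ions across the inner membrane of mitochondria, with a few members in peroxisomes or other membranes. Members were all genes whose row annotation on the array gave a single symbol made of Slc25a and a number, and 46 of the 31366 genes measured met this rule, with no use of measured values. A gene was given the median log2 value of its exon regions, compared over 4 groups of mouse B cells.

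Carriers of this family are built from a repeated pair of membrane helices and usually exchange a substrate inside the matrix for another outside it. They link mitochondria to the rest of the cell: citrate leaves for lipid synthesis, ADP and phosphate enter for ATP synthesis, and iron, glutathione, NAD and pyrimidine nucleotides enter for the enzymes and the genome of the organelle. B cells that are activated and turn into antibody-secreting cells grow, divide and enlarge their secretory membranes, which draws on these supplies.

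The series compared B cells with and without ELL2, an elongation factor of RNA polymerase II. Splenic B cells had been isolated on MACS columns, mouse by mouse, from C57BL/6 animals, wild type (WT) or carrying a conditional knockout named ELL2 -/- or cko in the labels. RNA came from cells processed at once (unstimulated, 4 WT and 4 cko arrays) or from cells cultured for 72 hours with lipopolysaccharide (LPS), a bacterial component that drives B cells towards antibody secretion (4 WT and 3 cko arrays). The labels give no promoter or Cre line for the knockout and do not name the deleted exons. No group was cultured without LPS, so effects of LPS and of 72 hours of culture cannot be told apart, and "with LPS" stands for both.

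Each array carried 437027 exon regions and 282044 exon junctions. The targeted gene, Ell2, had gene values of 11.07, 10.87, 11.08 and 11.10 in unstimulated WT arrays and 10.38, 9.78, 10.75 and 11.17 in unstimulated cko arrays. With LPS these were 16.86, 15.90, 16.56 and 15.73 in WT and 14.15, 14.16 and 14.14 in cko, so the groups did not overlap with LPS and did without it. All 5 measured B cell markers lay above the median gene (5.06 in unstimulated WT) in every array, but their mean was lower in some groups. It was 15.65 to 15.95 in unstimulated WT, 12.75 and 12.97 in WT replicates 1 and 3 with LPS, 14.44 and 14.64 in replicates 2 and 4, and 14.86 to 15.01 in cko with LPS. With LPS 3 of the 5 fell in WT (Ms4a1, Cd22 and Cd79b) and 0 in cko, and the difference between genotypes was called for 0. Of the cko arrays, 4 stood apart. Unstimulated cko replicates 1 and 2 had means of 10.49 to 10.92 over 9 T cell markers, 11.75 to 12.19 over 8 neutrophil markers, 8.44 to 8.68 over 6 NK cell markers and 8.17 to 8.35 over 7 monocyte and macrophage markers, all of them above the median gene. The B cell mean of these arrays was 13.96 to 14.15, against 15.84 to 15.87 in the other unstimulated cko arrays. Replicates 2 and 3 of cko with LPS had T cell means of 6.46 to 6.76 with 8 to 9 of the 9 markers above the median gene. In the other arrays the T cell mean was 4.58 to 4.96 with 1 to 5 markers above it. Over the 4 WT arrays with LPS the mean was 4.37 to 4.76 for NK cell markers. There it was 4.45 to 4.70 for monocyte and macrophage markers and 4.31 to 4.49 for neutrophil markers. Calls on the gene values of carriers that rest on these cko arrays, or on the 2 WT arrays low in B cell markers, are given with and without them. Uncalled differences, single rows and other gene lists are mostly given with all arrays only. By the level of Xist, 2 of 4 arrays in each WT group, 3 of 4 unstimulated cko arrays and 3 of 3 cko arrays with LPS came from females. P-values here rest on the spread between arrays, whose cells were isolated mouse by mouse. The sample titles do not say whether unstimulated and LPS arrays share mice. In bulk RNA, fewer cells of a type and less RNA per cell cannot be told apart.

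With LPS in WT cells, 13 of the 46 carriers changed (28.3%), against 24.5% of all genes tested (limma, adjusted p under 0.05 over all genes). Among genes whose mean reached that of the median gene in at least 1 group the order was the other way, with 34.2% of 38 carriers and 41.1% of all such genes called. Slc25a1, which exports citrate, showed the largest rise, and the pyrimidine nucleotide carrier Slc25a33, the NAD carrier Slc25a51, the ADP/ATP carrier Slc25a5, the glutathione carrier Slc25a39 and the peroxisomal cofactor carrier Slc25a17 rose too. Those that fell were both mitoferrins (Slc25a37 and Slc25a28), the phosphate carrier Slc25a3, the oxoglutarate/malate carrier Slc25a11, the pyrimidine nucleotide carrier Slc25a36, the S-adenosylmethionine carrier Slc25a26 and Slc25a45. Thus 6 carriers rose, with a background of 13.9%, and 7 fell, with a background of 10.6%. The median log2 change over the 46 carriers was 0.13, against 0.03 over all genes tested. An unadjusted p under 0.05 was reached by 20 carriers, beside 10703 of 31366 genes. Among genes that reached the median gene in a group it was 20 of 38 carriers and 9199 of 17369 genes. Of the 46, 8 were dim (Slc25a2, Slc25a21, Slc25a29, Slc25a31, Slc25a34, Slc25a41, Slc25a48 and Slc25a54), with every group mean under the median gene, and none of these was called. Without WT LPS replicates 1 and 3, the arrays low in B cell markers, 13 carriers were called, 9 higher and 4 lower. Of these 10 were also called with all arrays. The share of all genes called without these arrays is not given here. Slc25a11 (-0.81, adjusted p = 0.094), Slc25a28 (-0.68, adjusted p = 0.191) and Slc25a36 (-0.66, adjusted p = 0.0528) were then not called. The part of the B cell marker difference in the carriers' values was not tested. Arrays with and without LPS did not overlap in 9 carriers that were higher and 7 that were lower with LPS, beside 15.5% and 12.4% of all genes.

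**Figure D1:**
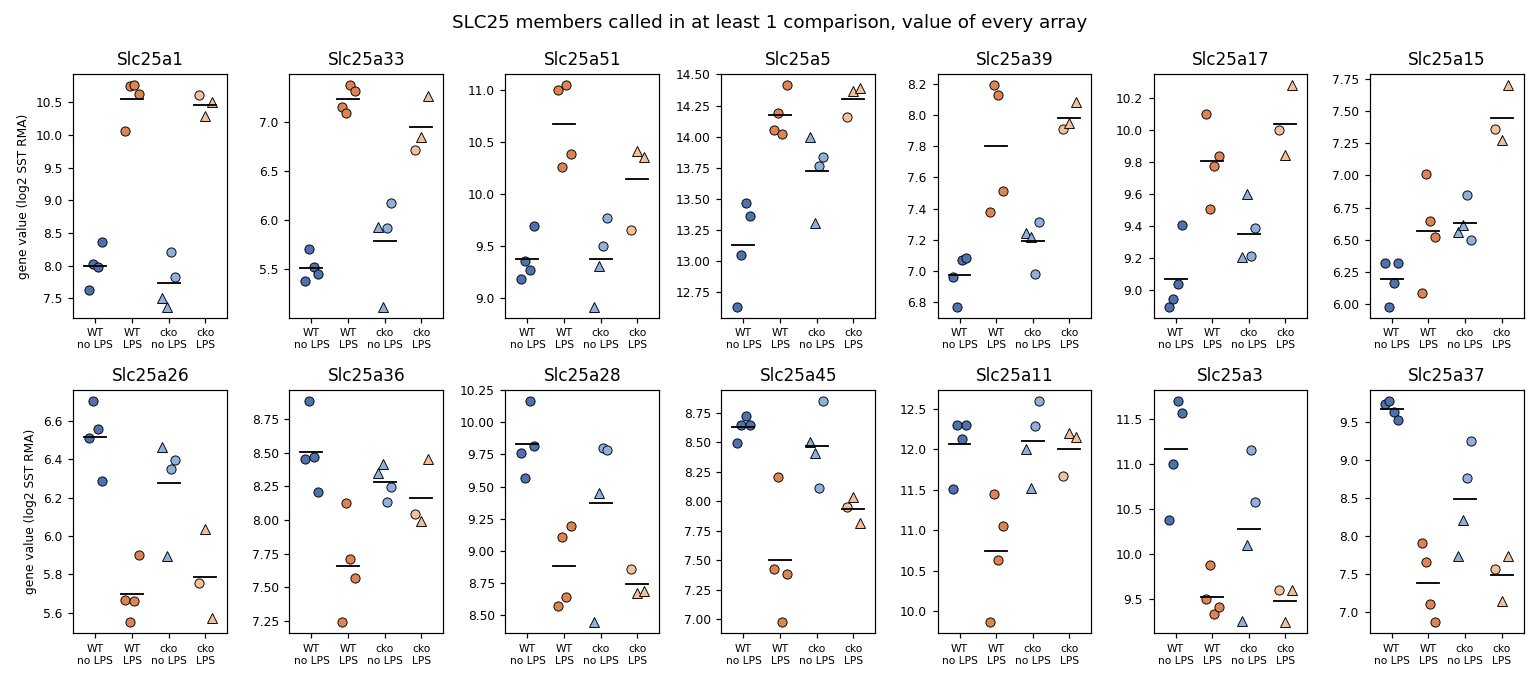
Gene value (log2, y axis) of every array for the 14 carriers called in at least 1 comparison, by group on the x axis. The line is the group mean and triangles are the 4 cko arrays with high T cell markers. For Slc25a1 the LPS arrays lie between 10.06 and 10.76 and those without LPS between 7.37 and 8.37.

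Among carriers with a promoter entry, 4 were taken that had the largest rises and falls of the gene value in WT. The fall of Slc25a3 holds for part of its exon regions only. By the median of junctions neither Slc25a3 nor Slc25a11 was called. The 250 bases before the annotated start of these 4 are shown so that the reader can see what lies upstream. They come from RefSeq on GRCm38.p6, are all on the minus strand and read 5′ to 3′ towards the start. Capitals mark matches on either strand to the E-box CACGTG, to an NRF1-like motif (GCGC, then NN, then GCGC), or to CCAAT.
Slc25a1, chr16:17928220-17928469: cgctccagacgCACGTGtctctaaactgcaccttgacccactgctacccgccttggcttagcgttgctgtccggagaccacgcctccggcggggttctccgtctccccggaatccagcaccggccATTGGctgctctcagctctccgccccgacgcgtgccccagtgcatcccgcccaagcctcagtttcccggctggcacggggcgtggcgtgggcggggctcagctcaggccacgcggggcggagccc
Slc25a33, chr4:149774268-149774517: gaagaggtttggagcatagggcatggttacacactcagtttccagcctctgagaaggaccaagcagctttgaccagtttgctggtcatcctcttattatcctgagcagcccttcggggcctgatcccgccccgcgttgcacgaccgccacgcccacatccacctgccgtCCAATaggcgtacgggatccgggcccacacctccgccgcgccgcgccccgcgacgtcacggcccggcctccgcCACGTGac
Slc25a3, chr10:91123968-91124217: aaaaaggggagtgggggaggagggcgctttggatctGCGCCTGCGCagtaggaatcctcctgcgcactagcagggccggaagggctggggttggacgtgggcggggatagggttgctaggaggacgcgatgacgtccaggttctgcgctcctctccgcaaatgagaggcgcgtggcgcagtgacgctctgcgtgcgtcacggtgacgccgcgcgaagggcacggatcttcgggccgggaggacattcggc
Slc25a11, chr11:70647040-70647289: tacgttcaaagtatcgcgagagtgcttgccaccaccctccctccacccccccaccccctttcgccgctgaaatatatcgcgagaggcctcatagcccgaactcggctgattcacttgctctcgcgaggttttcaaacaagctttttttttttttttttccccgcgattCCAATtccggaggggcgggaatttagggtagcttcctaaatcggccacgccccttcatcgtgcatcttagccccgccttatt
In Slc25a1 the E-box lies 239 to 234 bases before the start and a CCAAT match on the other strand at 125 to 121. In Slc25a33 the E-box lies 8 to 3 bases before the start and CCAAT at 81 to 77. Slc25a3 holds the NRF1-like motif at 214 to 205 and Slc25a11 holds CCAAT at 82 to 78. No pair of these matches overlaps. The CACGTG letters stand in 7 of the 36 carriers with an entry (19.4%) and in 6.86% of all genes with one. Besides Slc25a1 and Slc25a33 these were Slc25a13, Slc25a14, Slc25a15, Slc25a31 and Slc25a36, and Slc25a36 fell with LPS. The NRF1-like motif stands in 2 of the 36 (5.56%, against 5.64% of all genes), and CCAAT in 18 of the 36 (50%, against 37.5%). A match is a description of letters and not a bound site.

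Among the di- and tricarboxylate carriers, Slc25a1 takes citrate out of mitochondria, where the cytosol cleaves it to acetyl-CoA for fatty acid and sterol synthesis. Its values were 7.63, 8.03, 7.98 and 8.37 in unstimulated WT arrays and 10.06, 10.74, 10.76 and 10.63 with LPS. Slc25a1 rose by 2.54 ± 0.21 (log2 change ± SE, n = 4 and 4, limma adjusted p = 6.57e-07). All 4 LPS arrays lay above all 4 unstimulated arrays, and cko arrays showed the same order: 7.51, 7.37, 8.20 and 7.82 without LPS and 10.61, 10.28 and 10.50 with it. In cko the rise was 2.74 ± 0.23 (n = 4 and 3, adjusted p = 8.36e-06).

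Slc25a11, which exchanges 2-oxoglutarate for malate in the malate-aspartate shuttle, went the other way in WT. Its values were 11.51, 12.30, 12.13 and 12.30 without LPS and 9.86, 11.44, 10.62 and 11.06 with it. This fall was -1.31 ± 0.31 (n = 4 and 4, adjusted p = 0.00599). The lowest LPS arrays, replicates 1 and 3, are those with the lowest B cell markers. By the median of its junctions the change was -0.58 (adjusted p = 0.0626). In cko the values were 12.01, 11.52, 12.29 and 12.60 without LPS and 11.67, 12.20 and 12.15 with it. These groups overlap, and the LPS change of -0.10 ± 0.34 was not called (adjusted p = 0.908). The dicarboxylate carrier Slc25a10 (0.56 in WT, adjusted p = 0.0862) and the dim Slc25a21 (0.12) were not called.

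Of the 8 carriers of adenine nucleotides and phosphate, Slc25a5 (ADP/ATP carrier ANT2) rose and Slc25a3 (phosphate carrier) fell in WT. The other 6 were not called, with changes from -0.16 to 0.84. The called share was 25%, beside 24.5% of all genes. Slc25a5 had values of 12.64, 13.05, 13.47 and 13.36 without LPS and 14.05, 14.19, 14.02 and 14.41 with LPS in WT. The groups did not overlap, and the rise was 1.04 ± 0.19 (n = 4 and 4, adjusted p = 7.34e-04). With the mean of exon regions in place of their median it was 0.42 and not called (adjusted p = 0.115). Nor did cko arrays with and without LPS overlap, at 14.00, 13.31, 13.76 and 13.84 without LPS and 14.16, 14.37 and 14.39 with it, and their LPS change of 0.58 ± 0.20 was not called (n = 4 and 3, adjusted p = 0.0877).

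The other ADP/ATP carriers were not called. Slc25a4 (ANT1), the form of heart and muscle, had WT values of 8.81, 9.17, 9.52 and 9.59 without LPS and 8.72, 9.95, 9.37 and 9.95 with it. In cko it had 9.57, 9.38, 9.67 and 9.80 without LPS and 10.26, 10.21 and 10.19 with it. The LPS changes of Slc25a4 were 0.23 (adjusted p = 0.583) in WT and 0.62 (adjusted p = 0.173) in cko, where the arrays do not overlap. Without the WT LPS arrays low in B cell markers both were called (0.68, adjusted p = 0.0367, and 0.62, adjusted p = 0.0417). Slc25a31 (ANT4), a germ line form, was dim, with 3.80 to 4.46 over all 15 arrays.

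Slc25a3 brings phosphate, and copper, into the matrix. Its gene value was 10.38, 10.99, 11.70 and 11.57 without LPS and 9.49, 9.87, 9.33 and 9.40 with LPS in WT. The gene value fell by 1.64 on the log2 scale (SE 0.35, n = 4 and 4, adjusted p = 0.00287), but its rows did not move together. Of 23 exon regions, 8 fell, 1 rose and the others were not called. The 8 brightest, with unstimulated WT means of 15.70 to 17.21, had changes from -0.87 to 0.18 and none was called (lowest adjusted p = 0.0689), with the reserve that values near the top of this scale are compressed.

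For example, exon region PSR1000020372.mm.1 of Slc25a3 had 16.90, 16.90, 17.20 and 17.44 without LPS and 16.74, 17.54, 17.02 and 17.34 with it in WT, an overlap of the groups. PSR1000020383.mm.1 had 11.23, 11.41, 11.86 and 11.57 without LPS and 9.49, 10.14, 9.33 and 9.66 with it, with no overlap and a change of -1.86 (adjusted p = 5.25e-04). PSR1000020396.mm.1 rose by 2.12 (adjusted p = 0.00148). Of 11 junctions of Slc25a3, 1 rose (by 0.94, adjusted p = 0.047) and none fell. The median of junctions changed by 0.34 (adjusted p = 0.523) and the median of the exon regions at or above the gene's middle brightness by -0.06 (adjusted p = 0.886), so the fall of Slc25a3 holds for part of its exon regions only. Row positions were not used here.

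**Figure D2:**
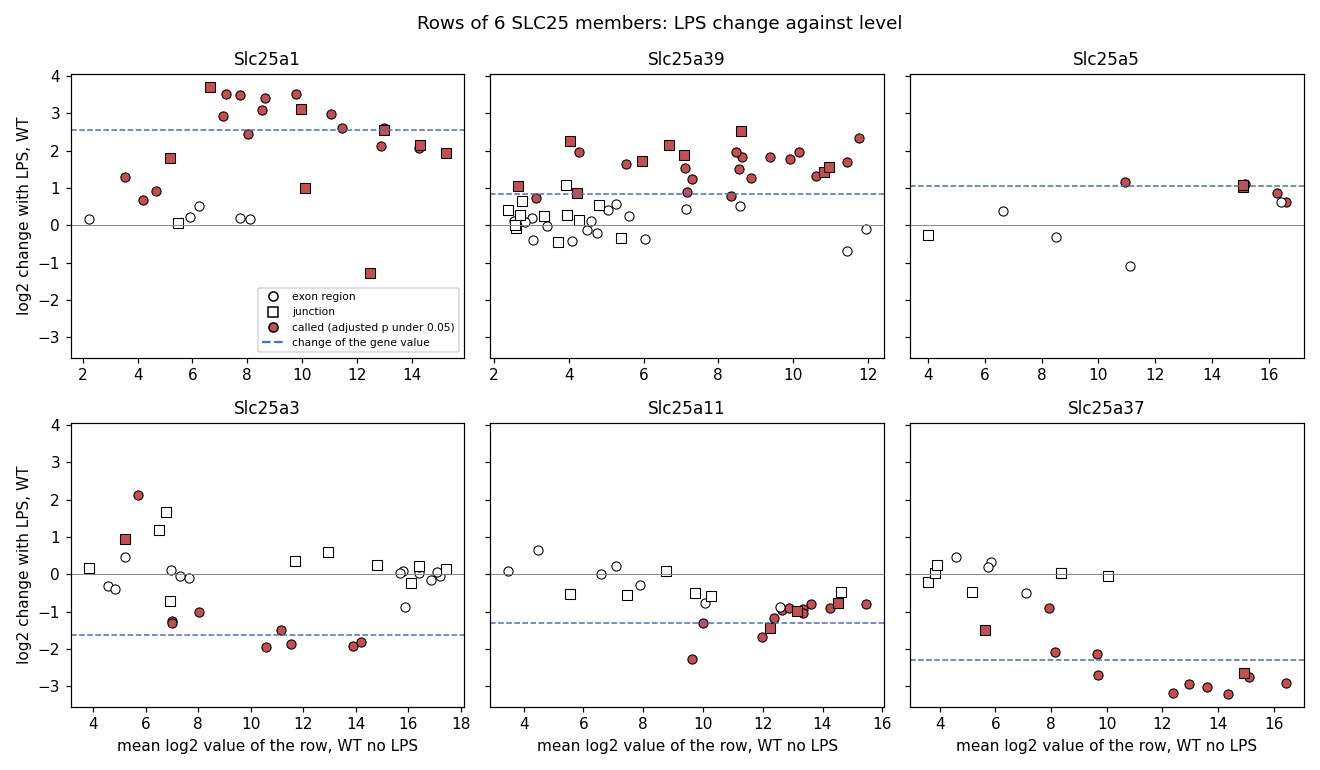
LPS change in WT (log2, y axis) of each exon region (circles) and junction (squares) against its mean in unstimulated WT arrays (log2, x axis) for 6 carriers. Filled symbols are rows called by limma and the dashed line is the change of the gene value. In Slc25a3 the brightest rows lie near 0 while the gene value lies at -1.64. In Slc25a37 the largest fall of a row was -3.21, in an exon region with an unstimulated WT mean of 14.37.

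Nucleotide and cofactor carriers held 5 of the 13 calls in WT among 8 members (62.5%), 3 up and 2 down. Of all genes 24.5% were called, and of those that reached the median gene in a group 41.1%. Whether this role differs from all genes was not tested. Slc25a33 and Slc25a36 both carry pyrimidine nucleotides, used for mitochondrial DNA and RNA synthesis. Slc25a33 had 5.38, 5.70, 5.52 and 5.45 without LPS and 7.15, 7.09, 7.38 and 7.32 with it in WT. It rose by 1.72 ± 0.20 (adjusted p = 1.44e-05). In cko the values were 5.92, 5.11, 5.92 and 6.17 without LPS and 6.72, 6.84 and 7.27 with it, a rise of 1.16 ± 0.21 (adjusted p = 0.00273).

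Slc25a36 had 8.46, 8.89, 8.47 and 8.21 without LPS and 7.24, 8.13, 7.71 and 7.57 with it in WT. It fell by 0.85 on the log2 scale (SE 0.19, adjusted p = 0.00352), so the pair went opposite ways with no overlap of arrays in either gene. In cko Slc25a36 had 8.35, 8.42, 8.13 and 8.25 without LPS and 8.05, 7.99 and 8.45 with it, an overlap, with a change of -0.12 (adjusted p = 0.787). In WT 33 of 34 exon regions of Slc25a36 had a lower mean with LPS, and 6 were called lower. Of its 13 junctions 10 were lower and 3 higher, and none was called. The median of its junctions changed by 0.23 (adjusted p = 0.777).

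Slc25a51 is the importer of NAD into mitochondria. Its WT values were 9.19, 9.35, 9.26 and 9.69 without LPS and 10.99, 10.26, 11.04 and 10.39 with it, a rise of 1.30 ± 0.23 (adjusted p = 7.71e-04). By junctions it was 0.54 (adjusted p = 0.197). Cko arrays had 8.92, 9.31, 9.49 and 9.77 without LPS and 9.65, 10.41 and 10.35 with it. Here the groups overlap and the change of 0.77 was not called (adjusted p = 0.0711). Slc25a17 carries coenzyme A, FAD and NAD in peroxisomes. It had 8.90, 8.95, 9.04 and 9.41 without LPS and 10.10, 9.51, 9.78 and 9.84 with it in WT (0.74 ± 0.16, adjusted p = 0.00298), and 9.21, 9.60, 9.22 and 9.39 against 10.00, 9.84 and 10.28 in cko (0.69 ± 0.17, adjusted p = 0.0192). In neither genotype did the arrays overlap.

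Slc25a26 supplies mitochondria with S-adenosylmethionine, the methyl donor. Its WT values were 6.51, 6.71, 6.56 and 6.29 without LPS and 5.67, 5.55, 5.66 and 5.90 with it, a fall of -0.82 ± 0.15 (adjusted p = 8.46e-04). In cko it had 6.47, 5.90, 6.35 and 6.40 without LPS and 5.75, 6.03 and 5.57 with it, and the change of -0.49 was not called (adjusted p = 0.0712). In WT 20 of 22 exon regions of Slc25a26 had a lower mean with LPS, and 11 were called lower. Of its 22 junctions 12 were higher and 10 lower, and none was called. The median of junctions changed by 0.26 (adjusted p = 0.537). The largest fall was that of PSR0600008754.mm.1, from 14.20, 14.69, 14.39 and 14.23 to 8.997, 12.09, 9.79 and 11.92 (-3.68, adjusted p = 5.42e-04), a row named after its values were seen.

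Iron and glutathione carriers held 3 calls in WT among 4 members, beside 24.5% of all genes. The share was 41.1% among genes that reached the median gene in a group. A difference of this role from all genes was not tested. Mitoferrin 1 (Slc25a37) is the main iron importer of the mitochondria of developing red cells, and mitoferrin 2 (Slc25a28) that of other cells. Slc25a37 had 9.74, 9.78, 9.63 and 9.52 without LPS and 7.91, 7.65, 7.10 and 6.86 with it in WT. This was the largest fall of the family, -2.29 ± 0.29 (n = 4 and 4, adjusted p = 4.22e-05), and 10 of 14 exon regions fell. By the median of its junctions the change was -0.68 and not called (adjusted p = 0.283). Unstimulated cko arrays were spread, at 7.73, 8.21, 8.76 and 9.25, all below the WT arrays, and the first 2 of these are the arrays with high markers of other cells. With LPS cko had 7.56, 7.14 and 7.74.

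The cko change of Slc25a37 was -1.01 ± 0.32 (n = 4 and 3, adjusted p = 0.0579) and became a called -1.53 (adjusted p = 0.00552) without those unstimulated arrays. Slc25a28 had 9.76, 9.57, 10.17 and 9.82 without LPS and 8.57, 9.11, 8.64 and 9.19 with it in WT, a fall of -0.95 ± 0.26 (adjusted p = 0.0142), which by junctions was -0.34 (adjusted p = 0.691). In cko it had 8.45, 9.45, 9.80 and 9.79 without LPS and 8.86, 8.67 and 8.69 with it. The change of -0.63 (adjusted p = 0.189) became -1.05 (adjusted p = 0.00839) without the same arrays. The part of other cells in these values was not tested.

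Slc25a39 and Slc25a40 are near relatives that bring glutathione into mitochondria. Slc25a39 had 6.96, 6.77, 7.07 and 7.09 without LPS and 7.38, 8.19, 8.13 and 7.51 with it in WT, a rise of 0.83 ± 0.17 (adjusted p = 0.0022), which by junctions was 0.48 (adjusted p = 0.124). In cko it rose from 7.24, 7.22, 6.98 and 7.32 to 7.91, 7.95 and 8.08 (0.79 ± 0.18, adjusted p = 0.014). Slc25a40 gave overlapping groups in both genotypes. Its WT values were 6.65, 6.81, 7.06 and 6.99 without LPS and 6.71, 7.29, 7.06 and 6.78 with it (0.08, adjusted p = 0.77). Its cko values were 7.32, 7.05, 7.32 and 7.04 without LPS and 7.28, 6.85 and 7.06 with it (-0.12, adjusted p = 0.734). Of the 34 exon regions of Slc25a39, 17 rose and none fell in WT.

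None of the 9 amino acid carriers was called for LPS in WT, beside 24.5% of all genes. Their changes ran from -0.43 to 0.66. The nearest was Slc25a12, the aspartate/glutamate carrier AGC1 (0.66, adjusted p = 0.0509), whose arrays do not overlap. Slc25a15, which exchanges ornithine and citrulline, rose in cko, and its WT change missed the threshold. WT values were 6.31, 5.98, 6.16 and 6.32 without LPS and 6.08, 7.01, 6.64 and 6.52 with it (0.37, adjusted p = 0.149). Cko values were 6.56, 6.62, 6.85 and 6.50 without LPS and 7.36, 7.28 and 7.70 with it (0.81 ± 0.19, adjusted p = 0.0132). The difference of these changes was not called (0.44, adjusted p = 0.52). Its paralogue Slc25a2 was dim, with 4.05 to 5.32 over all 15 arrays.

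Of the 9 members without an assigned role in the lists used, 1 fell in WT and 8 were not called. Of all genes 10.6% fell. The member that fell was Slc25a45. Its values were 8.50, 8.65, 8.73 and 8.65 without LPS and 7.43, 8.21, 6.98 and 7.39 with it, a fall of -1.13 ± 0.21 (adjusted p = 0.00116) with 11 of 15 exon regions lower. In cko it had 8.50, 8.41, 8.11 and 8.85 without LPS and 7.95, 8.04 and 7.82 with it, which do not overlap, and the change of -0.53 was not called (adjusted p = 0.18). The fatty acid carrier Slc25a20 (-0.10, adjusted p = 0.803) and the 3 uncoupling protein-like members (-0.26 to 0.36) were not called in WT.

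In cko cells with LPS, 5 carriers rose (Slc25a1, Slc25a33, Slc25a15, Slc25a39 and Slc25a17), against 6.36% of all genes, and 0 fell, against 3.99%. This is 10.9% of the carriers, beside 10.3% of all genes called either way. Among genes that reached the median gene in a group it is 13.2% of carriers and 18% of all such genes. An unadjusted p under 0.05 was reached by 16 carriers, beside 7276 of 31366 genes. Arrays did not overlap in 7 higher and 1 lower carrier, beside 12.2% and 7.3% of all genes. The 4 carriers called in both genotypes are 30.8% of the WT calls and 80% of the cko calls. Of the 46 carriers, 35 had LPS changes of the same sign in both genotypes. The shares of shared calls and of equal signs over all genes were not counted. Across the 46 carriers the LPS changes of the genotypes had a Pearson r of 0.812, a description over genes that share arrays. Of the 13 carriers called in WT, 12 had a smaller absolute change in cko, the exception being Slc25a1. Picking carriers by their WT call favours larger changes in WT, so this count does not show a weaker response in cko. The difference of the LPS changes was called for 0 of the 46, against 1.36% of all genes (0.185% higher and 1.18% lower in cko). At an unadjusted p under 0.05 it was 5 carriers, beside 4017 of 31366 genes. The largest differences were those of Slc25a37 (1.28, adjusted p = 0.185), Slc25a11 (1.22, adjusted p = 0.253) and Slc25a44 (-1.10, adjusted p = 0.207).

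These cko calls rest on few arrays. Without the unstimulated arrays with high T cell markers 9 carriers were called, and Slc25a3 (-1.39, adjusted p = 0.0205) and Slc25a26 (-0.59, adjusted p = 0.0471) joined the mitoferrins, while Slc25a15 was no longer called (adjusted p = 0.0599). Without the LPS arrays with high T cell markers, which leaves 1 array assumed to vary like the other groups, only Slc25a1 was called (2.88, adjusted p = 9.05e-04). Without all 4 it was 2, and Slc25a33 was then 0.67 (adjusted p = 0.116). Leaving out cko LPS replicate 3 alone ended the calls of Slc25a15, Slc25a17 and Slc25a39 (adjusted p = 0.073, 0.1 and 0.0609).

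**Figure D3:**
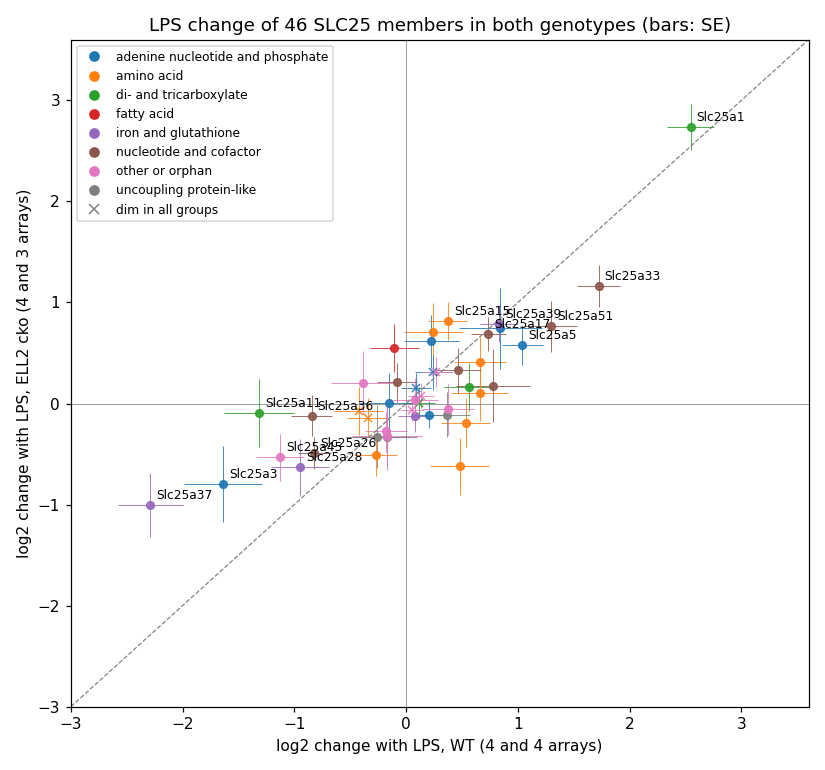
LPS change in cko (log2, y axis) against that in WT (log2, x axis) for the 46 carriers, with SE bars, coloured by role. Crosses are dim carriers and the dashed diagonal marks equal change. Slc25a1 lies near the diagonal at 2.54 and 2.74, and Slc25a37 lies at -2.29 in WT and -1.01 in cko.

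Without LPS no carrier differed between cko and WT cells by limma (0 of 46), where 0.0128% of all genes were called. An unadjusted p under 0.05 was reached by 6 carriers, beside 2829 of 31366 genes. Arrays did not overlap in 1 higher carrier, Slc25a15 (0.44, adjusted p = 0.483), and 1 lower, Slc25a37, beside 2.86% and 1.95% of all genes. The largest differences were those of Slc25a37 (-1.18 ± 0.29, adjusted p = 0.328) and Slc25a3 (-0.89 ± 0.35, adjusted p = 0.482). In both genes unstimulated cko replicates 1 and 2, the arrays with high markers of other cells, were the lowest of the group. The part of those cells was not tested.

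With LPS, 2 carriers were higher in cko than in WT, against 1.36% of all genes, and 0 were lower, against 3.3%, and 4.66% of all genes were called either way. Arrays did not overlap in 4 higher and 4 lower carriers, beside 6.23% and 7.65% of all genes. Slc25a15, the ornithine carrier, had 7.36, 7.28 and 7.70 in cko and 6.08, 7.01, 6.64 and 6.52 in WT, with no overlap (0.88 ± 0.19, n = 3 and 4, adjusted p = 0.0151). Without LPS the cko arrays of Slc25a15 also lay above the WT arrays, with a difference of 0.44 that was not called (adjusted p = 0.483). Slc25a11, the oxoglutarate/malate carrier, had 11.67, 12.20 and 12.15 in cko and 9.86, 11.44, 10.62 and 11.06 in WT, also with no overlap (1.26 ± 0.34, adjusted p = 0.0482). For Slc25a11, cko arrays with LPS thus stood at 12.01 on average, beside 12.06 in unstimulated WT and 10.75 in WT with LPS. Another 8 carriers had an unadjusted p under 0.05 without a call, the nearest being Slc25a44, which carries branched-chain amino acids (-1.03, adjusted p = 0.0529), and Slc25a43 (-0.67, adjusted p = 0.0796). With the called ones this is 10 of 46 carriers, beside 5334 of 31366 genes.

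Neither call was firm. Slc25a11 was called close to the threshold (adjusted p = 0.0482). Its call was lost in 9 of 15 runs that each left out 1 array (adjusted p up to 0.195). Some of these runs left out an unstimulated array, which is not part of this comparison. The call of Slc25a15 was lost without cko LPS replicate 3 (0.75, adjusted p = 0.0952). Without the 2 cko LPS arrays with high T cell markers neither was called, and the difference was 0.93 for Slc25a11 (adjusted p = 0.663) and 0.80 for Slc25a15 (adjusted p = 0.4). Without the 2 WT LPS arrays low in B cell markers neither was called either, at 0.76 (adjusted p = 0.424) and 0.68 (adjusted p = 0.153). Row by row, 3 of 18 exon regions and 3 of 9 junctions of Slc25a11 were higher in cko (by 1.05 to 1.61), and none was lower. By the median of junctions, however, neither Slc25a11 nor Slc25a15 was called. Slc25a11 was not called by the median of its brighter exon regions either.

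Tested as single rows in WT with LPS, 87 of 709 exon regions of the family rose and 77 fell, and 59 of 454 junctions rose and 22 fell, beside 11% of all rows higher and 10.1% lower. At least 1 row was called in 39 carriers, and in 11 of them rows went both ways. The share of all genes with such rows was not counted, and a gene with many rows has more chances of a called row. In cko with LPS 34 exon regions rose and 13 fell, and 18 junctions rose and 2 fell, beside 2.95% and 2.43% of all rows, with no carrier going both ways. Between genotypes with LPS 12 rows were higher and 2 lower, in 7 carriers, beside 0.964% and 1.83%. The lower rows were a junction of Slc25a47 (-2.39, adjusted p = 0.0224) and an exon region of Slc25a43 (-1.27, adjusted p = 0.0457).

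Unequal change within a gene was tested on the splicing index, the log2 value of a row less the gene value of the same array. Of 806 rows of 34 carriers, 127 were called in WT with LPS (15.8%), beside 14.8% of all rows tested. These rows lay in 28 carriers, and the share of all genes with such a row was not counted. In cko with LPS 21 were called (2.61%), beside 1.95%. Between genotypes with LPS 0 were called (72 at an unadjusted p under 0.05), beside 0.255% of all rows tested. The WT calls were most numerous in Slc25a3 (20 rows), Slc25a39 (18), Slc25a26 (12), Slc25a1 (12) and Slc25a37 (10). A gene with more rows has more chances of a call. In Slc25a3 the gene value fell, so rows that did not change can be called. The Slc25a37 junctions JUC1400009850.mm.1 and JUC1400009871.mm.1 had equal values in every array and were counted separately.

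Of the 6 rows with the smallest adjusted p in WT, 4 belong to Slc25a1. In PSR1600010669.mm.1 the values were 5.87, 6.19, 6.32 and 6.52 without LPS and 6.53, 6.92, 6.71 and 6.79 with it, so this exon region moved by 0.51 while the gene rose by 2.54 (index change -2.03, adjusted p = 2.11e-05). The junction JUC1600005580.mm.1 (-2.47) and the exon regions PSR1600010674.mm.1 (-2.32) and PSR1600010676.mm.1 (-1.63) also had changes below that of the gene. The means in unstimulated WT were 6.23 for PSR1600010669.mm.1, 5.48 for the junction, and 5.90 and 4.67 for the other regions. The median of all rows was 5.72 to 5.76, so PSR1600010669.mm.1 and PSR1600010674.mm.1 lay above it and the others below. A row with little signal gives an index change near the gene's change with the sign turned, whatever its exon does. Whether these rows are of that kind was not tested, so their values alone do not show unequal use of exons. The same 4 rows were called in cko with LPS, with index changes of -2.27, -1.69, -2.35 and -2.32. Another junction of Slc25a1, JUC1600005578.mm.1, fell in WT from 12.95, 12.14, 12.54 and 12.24 to 11.93, 10.98, 10.30 and 11.49 (-1.29, adjusted p = 0.0386), while 7 of the 9 junctions of the gene rose.

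The other rows of the 6 were PSR0800014751.mm.1 of Slc25a15 and JUC1000011201.mm.1 of Slc25a3. The Slc25a15 region fell from 9.61, 9.34, 9.41 and 9.40 to 7.86, 7.90, 7.36 and 8.03 in WT (-1.65, adjusted p = 2.06e-05) while its gene value did not change beyond the threshold. The Slc25a3 junction had 12.21, 13.14, 12.98 and 13.49 without LPS and 13.05, 14.03, 13.42 and 13.69 with it, groups that overlap, and its index rose by 2.23 since the gene value fell. Among carriers whose gene value was not called, the largest fall of a row was in Slc25a14 (UCP5), a row named after its values were seen. PSR0X00002926.mm.1 went from 10.47, 9.79, 8.65 and 9.77 to 6.87, 6.92, 6.58 and 5.88 in WT (-3.11, adjusted p = 5.2e-05), and the gene value of Slc25a14 changed by -0.26 (adjusted p = 0.594). In cko the same region had 8.33, 8.37, 8.44 and 8.07 without LPS and 8.04, 6.78 and 6.58 with it (-1.17, adjusted p = 0.127).

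Carriers reach the inner membrane through the TOM complex, small TIM chaperones and the TIM22 complex, and 15 of 16 listed genes of this import route were measured. With LPS in WT 5 of them rose and 1 fell, beside 13.9% and 10.6% of all genes. In WT arrays 14 to 15 of the 15 lay above the median gene. Of the 17369 genes that reached the median gene in a group, 4024 rose and 3107 fell. The median log2 change of the 15 was 0.46, beside 0.03 over all genes. Tomm7 (1.10, adjusted p = 5.71e-04) and the receptor Tomm20 (0.77, adjusted p = 0.032) rose most, followed by Timm29 (0.66) and Timm13 (0.62), and the chaperone gene Timm9 fell by 0.50 (log2 change -0.50, adjusted p = 0.0333). In cko 3 rose and 1 fell, beside 6.36% and 3.99% of all genes (1903 and 1219 of the 17369). Tomm20 (1.15), Tomm70a, the receptor that binds carriers (1.12), and Timm22, the channel (0.76), were higher with LPS, and Timm10b was lower (-0.62). Between genotypes with LPS only Timm10b of this list was called, lower in cko (-0.90, adjusted p = 0.0123). Of all genes 3.3% were called lower, and 1020 of the 17369.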

How the data were processed

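RNA of 15 samples was measured on Affymetrix exon and junction arrays, 1 array each. The deposited table holds log2 values, which the authors made with SST RMA in Affymetrix Expression Console, per the labels and the submitters' processing notes. Versions are not given in the sources used here. The transformation stretches folds, and values (1.74 to 19.93) are compressed near the top, so changes are those of this scale. The number of arrays limits precision.

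Of 725678 rows, 580167 have 1 symbol in the platform annotation, and the others were left out. Symbols were updated through RefSeq (1465), and all 46 carrier symbols are current. All 15 columns were matched to labels. The median of exon regions gave 31366 gene values. A limma model (version 3.58.1, R 4.3.3) with 1 mean per group was fitted to all arrays, with 5 contrasts, moderated two-sided tests and Benjamini-Hochberg adjustment over all genes, and calls at an adjusted p under 0.05. SE comes from this fit. The splicing index was tested likewise, for rows at or above the 25th percentile in genes with at least 3 exon regions and a value at or above the median gene in every group, and, added after seeing the data, the level of each row. The methods were checked on simulated data. Same-numbered replicates were taken as unpaired, since the correlations of their deviations from the group means ran from -0.25 to 0.226.

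Named are, per comparison, up to 8 called rises and 8 called falls, paralogues of called carriers, and the 6 rows with the smallest adjusted p. Carriers, lists and rules were chosen with earlier results of these data known. Alternatives were a filter on dim genes, quantile normalization, centring, trend and robust settings, mean exon regions, junctions, fits of the compared groups alone, leaving out each array, and replicate block. Chosen after seeing the data were leaving out arrays with high T cell markers (mean over 1 log2 unit above unstimulated WT) or low B cell markers (over 2 below it), brighter exon regions, and Xist as a term. Promoters (32851 entries of 27025 genes) are those of RefSeq.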

Additional observations from a re-analysis of the deposited data

Results flagged for a closer look

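Of 54 sets of 4 arrays examined for named carriers, 1 held an array far from the others, and chance alone flags about 1 in 20. Slc25a31, a dim carrier, had 4.40 in unstimulated ELL2 cko replicate 4, against 3.86 to 3.91 in the other 3 arrays of the group, a gap that is 0.906 of the whole range. No result of the report rests on this value.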

How the results depend on the processing

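For LPS in WT, 13 carriers were called, 13 to 15 with any array left out, and 7 with the median of junctions. By junctions the change turned to 0.26 for Slc25a26 (adjusted p = 0.537), 0.34 for Slc25a3 (adjusted p = 0.523) and 0.23 for Slc25a36 (adjusted p = 0.777), and the calls of Slc25a11, Slc25a17 (0.71, adjusted p = 0.0531), Slc25a28, Slc25a37, Slc25a39 and Slc25a51 were lost, with Slc25a1, Slc25a5, Slc25a33 and Slc25a45 still called. That summary moved the median change of all genes to 0.11 and the share of rises among all calls from 56.7% to 69.5%, and its cause was not tested. For LPS in cko (5 called) the count was 2 to 9 with an array left out, 8 with mean exon regions, 0 with junctions, and 2, 9 and 1 without all 4, the 2 unstimulated and the 2 LPS arrays with high T cell markers, and 8 without the 2 WT LPS arrays low in B cell markers. For genotype with LPS (2 called) it was 0 to 5 with an array left out, 1 with centred arrays, 5 with mean exon regions, and 0 with only the groups compared and without all 4, the 2 cko LPS or the 2 WT LPS arrays. With junctions neither of the 2 genotype calls with LPS was kept. Without LPS the count for genotype was 0 in every run, and for the difference 0 to 1 with an array left out. Unequal rows numbered 86 to 140 (LPS in WT), 11 to 25 (LPS in cko) and 0 to 4 (genotype with LPS) with an array left out, and for LPS in cko (21) were 7 with only the groups compared, and 2, 36 and 5 without all 4, the 2 unstimulated and the 2 LPS arrays. Without the 2 WT LPS arrays unequal rows for LPS in WT (127) were 50, called exon regions 82 and falls among those of Slc25a3 4. Called exon regions in WT (164) ranged from 117 to 178 with an array left out, and falls among those of Slc25a3 (8) from 5 to 9. With the replicate block, 16, 5, 0, 3 and 0 carriers were called in the 5 comparisons, a change within 1.5 times except that 0 cannot be compared. Xist as a term moved no count by over 1.5 times. Of 580 alternatives of the 20 called carrier results 523 kept the call, 54 lost it and 3 reversed. The calls of Slc25a1, Slc25a33 and Slc25a45 with LPS in WT held in all. Dim carriers limit what can be seen, with 8 of 46 under the median gene.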

Other observations

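Mitochondria also hold transport proteins outside the carrier family, and 22 of 25 listed genes of channels and other transporters were measured. With LPS in WT 5 rose and 3 fell (limma, adjusted p under 0.05), beside 13.9% and 10.6% of all genes, with a median log2 change of 0.04, beside 0.03 over all genes. In WT arrays 19 to 20 of the 22 lay above the median gene. Of the 17369 genes that reached the median gene in a group, 4024 rose and 3107 fell. Tspo, an outer membrane protein that binds cholesterol and porphyrins, rose by 2.49 ± 0.52 (adjusted p = 0.00241, n = 4 and 4). Smdt1, a subunit of the calcium uniporter, rose by 1.81 ± 0.29 (adjusted p = 2.86e-04), the serine transporter gene Sfxn1 by 1.55 ± 0.23 (adjusted p = 1.52e-04), and Sfxn3 fell (-1.17 ± 0.31, adjusted p = 0.0117). In ELL2 cko 2 rose and 2 fell, beside 6.36% and 3.99% of all genes (1903 and 1219 of the 17369). Vdac3, a pore of the outer membrane (1.60), and Sfxn1 (0.93) were higher with LPS, and Sfxn3 (-1.62) and Sfxn5 (-0.65) were lower. Tspo changed by 0.83 (adjusted p = 0.426) and Smdt1 by 0.55 (adjusted p = 0.328) in cko, and the difference from WT was not called for either (adjusted p = 0.381 and 0.185). Between genotypes none of the 22 was called, with or without LPS.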
